A study of Mus musculus with 4 samples.

Results

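Chemokines and their receptors were read in mouse lung endothelial cells with, or without, a genetic record of switching on the alpha smooth muscle actin locus. The family was taken by gene symbol: every CC and CXC chemokine and receptor, the CX3C pair, the atypical receptors Ackr2, Ackr3 and Ackr4, and Ccrl2, without Ccr7 and the Ccl21 copies. This gave 54 of the 17915 coding genes in the deposited table, namely 33 ligands, 17 signalling receptors and 4 atypical receptors. All 4 libraries came from mice with the genotype Cdh5-CreER;aSMA-LSL-Dre;NR1, given tamoxifen 5 times and studied 6 weeks after transverse aortic constriction (TAC), a surgical narrowing of the aorta. Cdh5-CreER is a tamoxifen-inducible recombinase under an endothelial promoter, and the aSMA-driven Dre recombinase turns a ZsGreen-marked endothelial cell into a tdTomato-marked one for good. There were 2 libraries labelled as tdTomato+ endothelial cells and 2 as ZsGreen+ ones, with no library from mice without TAC among them. The labels call them biological replicates but name neither age nor sex nor the number of mice per library, so p-values measure only the spread between these libraries.

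Chemokines are small secreted or membrane-held proteins that guide leukocytes, and their classes are named for the spacing of conserved cysteines near the start of the mature protein. Endothelium presents them on its luminal surface, where they act on rolling leukocytes through G protein-coupled receptors. Atypical receptors bind chemokines without the usual G protein signal and take them up or move them across the cell, which shapes local gradients.

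The libraries held 17050673 to 18574737 counts over coding genes. Endothelial markers were abundant in each library, with Pecam1 (CD31) between 1809 and 2104 CPM and Cdh5 (VE-cadherin) between 1112 and 2422 CPM. CPM is the depth-scaled read count, on library sizes adjusted by edgeR's TMM method. Acta2, the recorded gene, stood at 304 and 528 CPM in tdTomato+ and 87.6 and 82.9 CPM in ZsGreen+ libraries. Leukocyte RNA was present in all 4 libraries and was lowest in ZsGreen+ 2. The summed level of 7 pan-leukocyte markers was 707 and 442 CPM in tdTomato+ cells, 480 CPM in ZsGreen+ 1 and 108 CPM in ZsGreen+ 2, with no marker at 0. Macrophage RNA was not minor, as 10 macrophage markers summed to 5535 and 2593 CPM in tdTomato+ and 3089 and 644 CPM in ZsGreen+ libraries. The 8 endothelial markers summed to 6344 and 5960 CPM against 7571 and 6879 CPM.

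The promoters below are those of Cxcl1 and Cxcl2, the main neutrophil attractants read here, and of Cxcl3 and Cxcl10. All 4 were picked by hand and hold a match to a motif described below. Cxcl1 and Cxcl2 were ordered alike over the 4 libraries, as was Cxcl10 but for its middle pair. That order was not particular to them. Ccl4, Ccr1 and Ccl6 had it too, with Ccl6 at 376 and 219 CPM in tdTomato+ and 205 and 49.5 CPM in ZsGreen+ libraries. Each is the stretch just before the annotated start in RefSeq's GRCm38.p6 annotation, written 5′ to 3′ on the gene's strand. Capitals mark matches to the NF-kappaB motif (GGGA, any 2 bases, then TTCC) and the interferon response motif (TTTC, any 2 bases, then TTTC), both searched on both strands. In Cxcl1, Cxcl2 and Cxcl3 the capitals are 2 overlapping matches, 1 on each strand. The stretches lie at chr5:90891115-90891244 for Cxcl1, chr5:90903769-90903898 for Cxcl2 and chr5:90785971-90786100 for Cxcl3, all on the plus strand, and at chr5:92348890-92349109 on the minus strand for Cxcl10.
Cxcl1: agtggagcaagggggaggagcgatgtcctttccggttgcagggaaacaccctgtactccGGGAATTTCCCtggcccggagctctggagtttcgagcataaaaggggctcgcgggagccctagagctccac
Cxcl2: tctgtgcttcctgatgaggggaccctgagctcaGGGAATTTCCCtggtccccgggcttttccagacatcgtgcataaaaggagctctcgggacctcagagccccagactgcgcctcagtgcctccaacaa
Cxcl3: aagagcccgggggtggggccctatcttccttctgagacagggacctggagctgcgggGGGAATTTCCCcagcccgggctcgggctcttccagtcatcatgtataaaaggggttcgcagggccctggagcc
Cxcl10: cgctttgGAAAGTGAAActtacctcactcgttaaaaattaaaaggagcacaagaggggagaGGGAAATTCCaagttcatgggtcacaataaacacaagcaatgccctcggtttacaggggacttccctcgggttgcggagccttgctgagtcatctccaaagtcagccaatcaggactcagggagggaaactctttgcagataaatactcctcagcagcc
The NF-kappaB motif was found in the 250 bases before the start of 6 of the 42 members with a window, the 4 shown and Ccl1 and Ccr3, and in 1.21% of all 32851 windows. Of these 6, only Cxcl1, Cxcl2 and Cxcl10 had a mean above 1 CPM. The interferon response motif was found for Cxcl10, Cxcl14 and Ccl19, and in 2.98% of all windows. A match is a description of the sequence and not evidence of binding, and its relation to the order of the libraries was not tested.

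An atypical receptor and its ligand led the family's RNA by mean level over the 4 libraries. Levels of different genes are compared per length, as the authors' TPM (a share of all transcripts after scaling for length). Ackr3, the atypical receptor that takes up Cxcl12, led with 411 and 460 TPM in tdTomato+ cells and 375 and 500 TPM in ZsGreen+ cells. Its ligand Cxcl12, the stromal cell-derived factor that retains and guides leukocytes and progenitors, followed with 297 and 364 TPM against 287 and 327 TPM. These 2 genes, whose ranges overlapped between the groups, held 33.6% and 44.5% of the family's summed TPM in tdTomato+ cells and 44.4% and 59.3% in ZsGreen+ cells. Ccl6, a CC ligand known from mouse macrophages, came next by mean at 491 and 270 TPM against 214 and 61.4 TPM. In tdTomato+ 1 it was the highest member. The family summed to 2106 and 1850 TPM in tdTomato+ cells and 1491 and 1393 TPM in ZsGreen+ cells. The 17 signalling receptors summed to only 35.4, 21.8, 17.3 and 8.76 TPM in the same order, and none had a mean above 4.58 TPM.

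**Figure D1:**
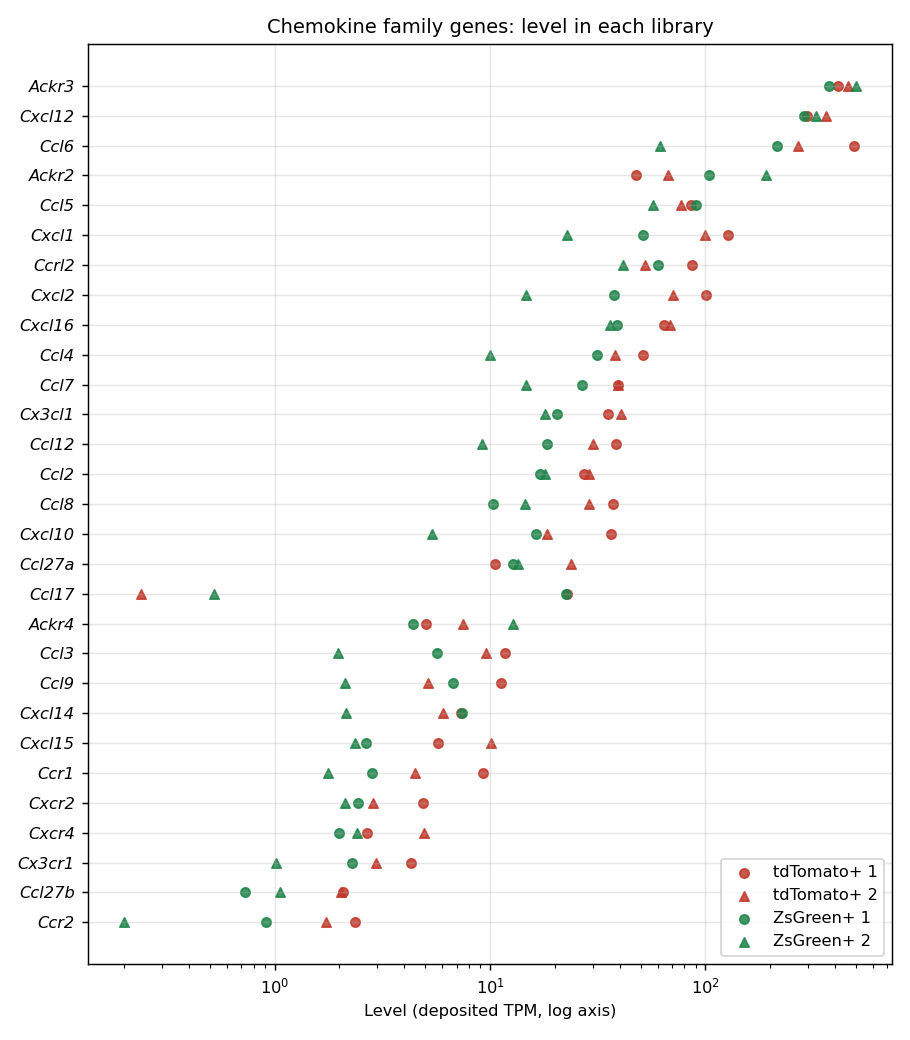
Level of 29 of the 30 members with the highest mean CPM, in deposited TPM on a log axis, ordered by mean TPM. Each point is 1 library, red for tdTomato+ and green for ZsGreen+, circles for replicate 1 and triangles for replicate 2. Ackr3 and Cxcl12 lead with overlapping groups, and ZsGreen+ 2 is the leftmost point for most ligands.

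No member passed edgeR's quasi-likelihood test between tdTomato+ and ZsGreen+ cells at a Benjamini-Hochberg adjusted p under 0.05. Over all genes tested, 0.304% were called. The test covered 39 members, 24 ligands and 15 receptors, and the lowest adjusted p was 0.143, that of Ackr2. At an unadjusted p under 0.05, edgeR listed 10 of 39 members, against 8.77% of all genes tested. Of these, 9 were higher in tdTomato+ cells, against 5.62% of all genes, and 1 was lower, against 3.15%. DESeq2 called 3 members, Cxcl1, Cxcl2 and Ackr2, against 2.44% of all genes, while limma-voom and limma on TPM called none. The median log2 fold change of tdTomato+ over ZsGreen+ was 0.66 over the 39 members and -0.01 over all 13177 genes tested, and 29 of 39 members had a positive value, against 49.3% of all genes. Both tdTomato+ libraries lay above both ZsGreen+ libraries in 19 members, against 19.9% of all genes, and below them in 1 member, Ackr2, against 18.2%. ZsGreen+ 2 held the lowest value for 26 of the 39 members and for 27.8% of all genes tested, and tdTomato+ 1 the highest for 18 of 39, against 23.9%. ZsGreen+ 2 was also lowest for 7 of 7 pan-leukocyte markers, 8 of 10 macrophage markers and 4 of 4 B cell markers tested. It was lowest for 6 of 7 neutrophil and monocyte, 3 of 4 dendritic cell and 3 of 5 T and NK cell markers tested. Not all went this way, as Ly6c2 and the dendritic cell marker Clec9a were highest in ZsGreen+ 2, at 75.6 and 8.05 CPM. The part of leukocyte RNA in the members' differences was not tested. The counts cannot tell more cells of a type from more RNA per cell. Without ZsGreen+ 1, which leaves ZsGreen+ 2 as the only ZsGreen+ library, 5 members were called (Cxcl1, Cxcl2, Ccl4, Ccl6 and Ackr2, against 2.21% of all genes) and the median was 1.67. Without ZsGreen+ 2 none was called, against 0.19% of all genes, and the median was 0.43. None was called without tdTomato+ 1 (0.126% of all genes) or without tdTomato+ 2 (0.0295%).

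**Figure D2:**
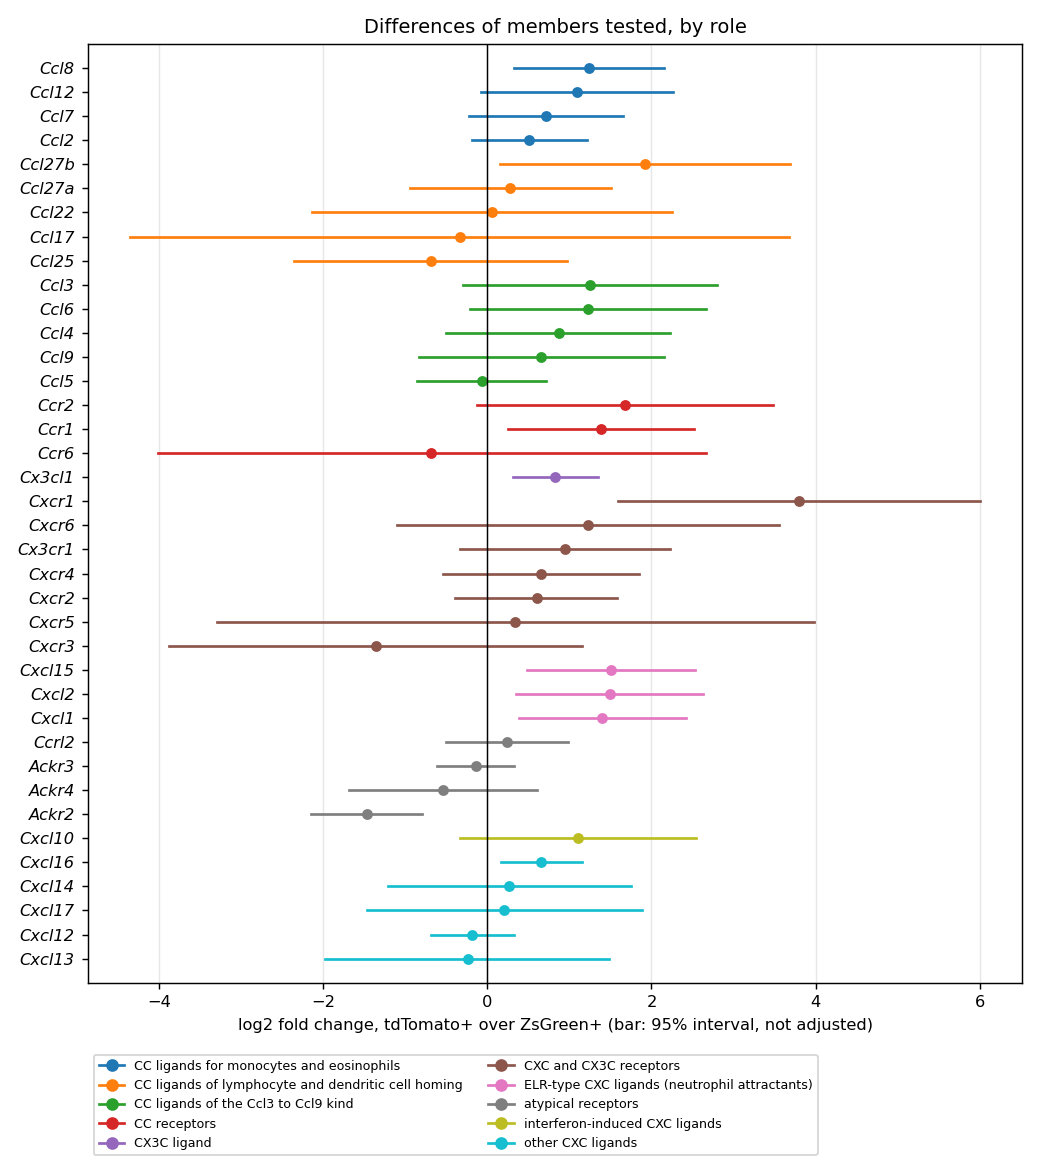
Log2 fold change of tdTomato+ over ZsGreen+ cells for 38 of the 39 members tested, grouped and coloured by role, with bars for the 95% interval of each gene (not adjusted for the number of genes). Most points lie right of 0, Ackr2 lies left of 0 at -1.47, and most bars cross 0.

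Among the atypical receptors, Ackr2 stood apart from the other members. Ackr2, also called D6, takes up inflammatory CC chemokines and is known from lymphatic endothelium. It was read at 80.9 and 118 CPM in tdTomato+ and 217 and 335 CPM in ZsGreen+ libraries. The groups did not overlap, and the level was 2.77-fold higher in ZsGreen+ cells. This is a log2 fold change of -1.47 (SE 0.28, edgeR adjusted p = 0.143), which did not pass. It stayed between -1.75 and -1.13 over all alternatives. Among fits without a replicate block, it was called by DESeq2 (adjusted p = 5.39e-05), by edgeR with no filter on low counts (adjusted p = 0.0348) and by edgeR without ZsGreen+ 1 (adjusted p = 0.0183), with edgeR and limma adjusted p up to 0.597 in the other such fits. The gene (NCBI Gene 59289) lies at chr9:121898355-121911075 of GRCm38.p6. Several lymphatic markers were also lower in tdTomato+ libraries. Of 8 such markers, 4 fell by edgeR's test, against 0.137% of all genes tested. In 7 of the 8, both tdTomato+ libraries lay below both ZsGreen+ libraries (18.2% of all genes did). Among them was multimerin 1, Mmrn1, at 15.8 and 11.7 CPM against 74.5 and 161 CPM. The summed level of the 8 lymphatic markers was 720 and 1015 CPM against 982 and 1282 CPM, and no marker was at 0. The sums overlapped, and Lyve1, the most abundant marker of the list, stood at 503 and 840 CPM against 407 and 593 CPM. Lower values were not particular to lymphatic markers. Both tdTomato+ libraries lay below both ZsGreen+ libraries in 6 of 8 markers of aerocytes, a lung capillary cell type, and 1 was called. The same held for 4 of 8 general capillary markers, with 1 the other way and none called. The part of lymphatic or capillary markers in the Ackr2 difference was not tested.

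Ackr3 and Cxcl12 showed no difference beyond the spread between libraries. Ackr3 stood at 472 and 554 CPM in tdTomato+ and 532 and 599 CPM in ZsGreen+ libraries. Its log2 fold change was -0.14 (95% interval -0.61 to 0.32), and 0.01 on the TPM scale. Cxcl12 stood at 688 and 895 CPM against 864 and 929 CPM, with a log2 fold change of -0.18 (95% interval -0.68 to 0.32), and 0.10 on the TPM scale. Both intervals span 0, which does not show that the levels were the same. Cxcr4, the signalling receptor of Cxcl12, was low at 2.64 and 4.94 CPM against 2.34 and 2.46 CPM. Ccrl2, a surface receptor that binds chemerin without signalling, was at 89.9 and 58.5 CPM against 79.3 and 46.5 CPM, so its groups overlapped. Ackr4, which takes up the homing ligands Ccl19, Ccl21 and Ccl25, was at 5.94 and 9.40 CPM against 6.45 and 15.8 CPM, highest in ZsGreen+ 2. Exons of Acad11 on the other strand cover 8.9% of the Ackr4 exon bases.

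The neutrophil-attracting CXC ligands lay higher in both tdTomato+ libraries, without passing edgeR's test. Cxcl1, a ligand of Cxcr2 that endothelium can release on inflammatory stimulation, stood at 60.4 and 49.7 CPM in tdTomato+ and 30.3 and 11.3 CPM in ZsGreen+ libraries. That gives a log2 fold change of 1.4 (SE 0.43, edgeR adjusted p = 0.359), and it ran from 0.86 without ZsGreen+ 2 to 2.28 without ZsGreen+ 1. Cxcl2, its close relative and neighbour on chromosome 5, stood at 55.1 and 41.1 CPM against 25.9 and 8.49 CPM (a log2 difference of 1.49, SE 0.48, edgeR adjusted p = 0.391), with 0.89 without ZsGreen+ 2 and 2.5 without ZsGreen+ 1. In both genes ZsGreen+ 2 was lowest and the ZsGreen+ libraries differed more from each other than the tdTomato+ libraries did. Several neutrophil and monocyte markers also lay higher, with both tdTomato+ libraries above both ZsGreen+ libraries in 5 of 7 tested, against 19.9% of all genes, and none called. Plac8 overlapped at 191 and 238 CPM against 192 and 136 CPM. Ly6c2 also overlapped and was highest in ZsGreen+ 2, at 4.68 and 41.8 CPM against 8.23 and 75.6 CPM. The summed level of the list, these 2 genes included, was 239 and 329 CPM against 230 and 226 CPM. No marker of the list was at 0, and the granulocyte marker Ly6g was under 0.3 CPM in each library. The part of these markers was not tested. Cxcl15 (lungkine), known from lung epithelium, stood at 6.82 and 12.7 CPM against 3.92 and 2.96 CPM (a log2 difference of 1.51, SE 0.43). The surfactant gene Sftpc, a marker of alveolar type 2 epithelium, was at 251 and 282 CPM against 163 and 68.4 CPM in the same libraries. Of 8 epithelial markers, 5 had both tdTomato+ libraries above both ZsGreen+ libraries, against 19.9% of all genes. Among the 5 were 4 surfactant genes, and none of the 8 was called. The club cell gene Scgb1a1 was highest in ZsGreen+ 2, at 47.6 and 54.4 CPM against 17.7 and 384 CPM. Summed levels of the list overlapped at 438 and 525 CPM against 276 and 526 CPM. The part of epithelial RNA was not tested. Cxcl3 had 18 reads in tdTomato+ cells and 0 in ZsGreen+ cells, and was too low to test. Setting the ZsGreen+ group at a floor of 3 counts gives a ratio of 5.49. This figure leaves out the error of the 18 reads, so it is not a lower bound. Cxcl5 had 3 reads in all 4 libraries together.

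The membrane-held ligands Cx3cl1 and Cxcl16 lay higher in both tdTomato+ libraries by smaller margins. Cx3cl1 (fractalkine), which endothelium displays to monocytes bearing Cx3cr1, stood at 64.5 and 77.9 CPM in tdTomato+ and 46.0 and 34.2 CPM in ZsGreen+ libraries. This is a log2 fold change of 0.83 (SE 0.22, edgeR adjusted p = 0.274), between 0.63 and 1.06 over the alternatives. Cxcl16, the ligand of Cxcr6, stood at 51.3 and 58.3 CPM against 38.9 and 30.5 CPM, a log2 fold change of 0.66 (SE 0.21, edgeR adjusted p = 0.373). Neither pair of groups overlapped. Exons of Zmynd15 on the other strand cover 18.3% of the Cxcl16 exon bases, and Zmynd15 was read at 12.3 and 15.0 CPM against 7.02 and 3.51 CPM, so some reads of the 2 genes cannot be told apart without strand. Among venous endothelial markers in the same libraries, 3 of 8 rose by edgeR's test, against 0.167% of all genes tested. One was the adhesion molecule Vcam1, at 294 and 276 CPM against 83.2 and 58.8 CPM. Nr2f2 of the same list overlapped at 40.5 and 55.5 CPM against 31.7 and 52.1 CPM, as did Ephb4 at 277 and 350 CPM against 324 and 329 CPM. Of 8 arterial markers, 4 had both tdTomato+ libraries above both ZsGreen+ libraries (19.9% of all genes did), 2 had both below (18.2%), and none was called. The part of vessel type in the Cx3cl1 and Cxcl16 differences was not tested.

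**Figure D3:**
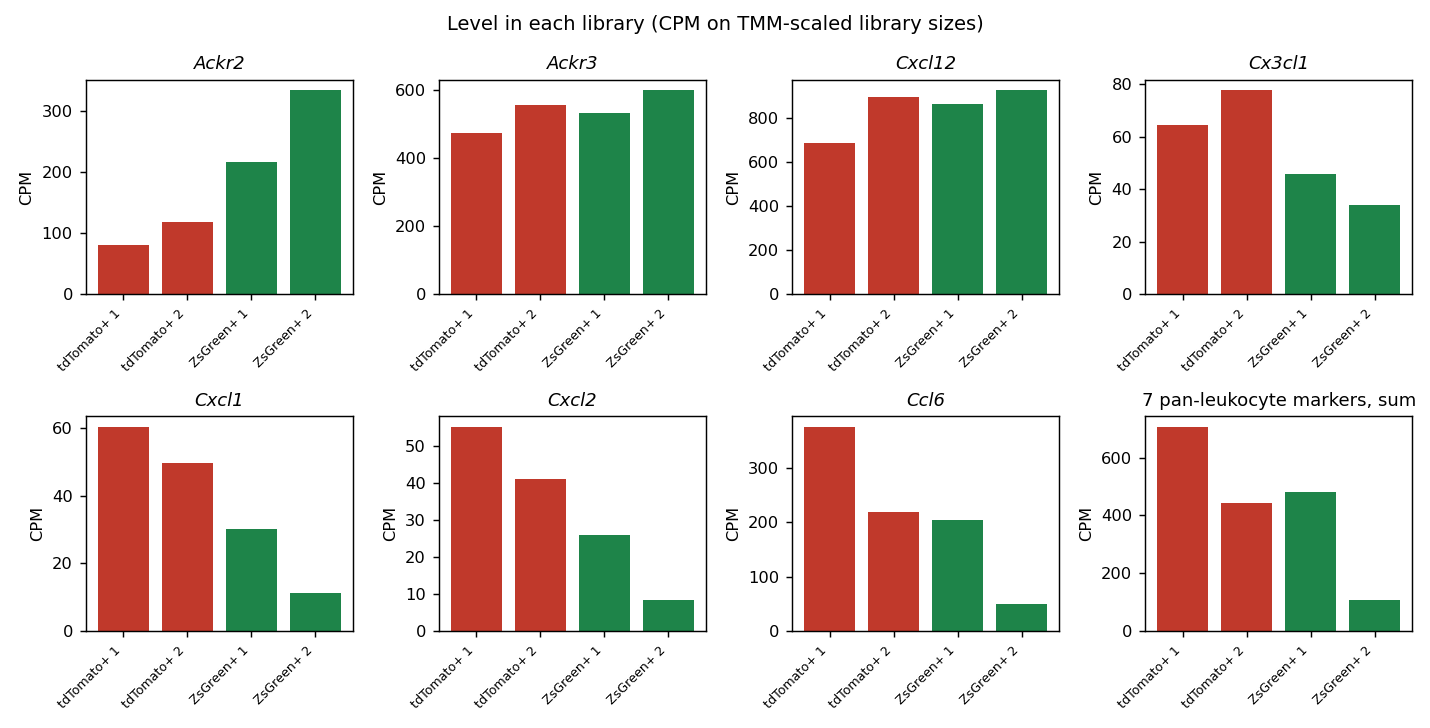
Level in CPM of 7 members and of the sum of 7 pan-leukocyte markers in each of the 4 libraries, red for tdTomato+ and green for ZsGreen+. Ackr2 is lower in tdTomato+ cells, Ackr3 and Cxcl12 overlap, and Cxcl1, Cxcl2, Ccl6 and the leukocyte markers are all lowest in ZsGreen+ 2.

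The remaining CXC ligands were low or overlapping. Cxcl10, an interferon-induced ligand of Cxcr3, stood at 20.5 and 10.9 CPM in tdTomato+ and 11.5 and 3.18 CPM in ZsGreen+ libraries. Its relative Cxcl9 stayed under 0.8 CPM in every library. Cxcl14, a ligand expressed in many epithelia, was at 7.48 and 6.35 CPM against 9.24 and 2.25 CPM. Cxcl13, the B cell attractant, was at 2.48 and 0.998 CPM against 2.97 and 1.15 CPM. Its highest values came from replicate 1 of each group, as did those of the B cell marker Cd79a, at 5.94 and 1.42 CPM against 6.39 and 0.712 CPM. Cxcl17 lay between 0.633 and 0.84 CPM.

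The CC ligands that draw monocytes lay higher in both tdTomato+ libraries in 4 of 4 tested, against 19.9% of all genes tested, and none of them was called. Ccl8 stood at 7.37 and 6.14 CPM in tdTomato+ and 2.66 and 3.07 CPM in ZsGreen+ libraries (log2 fold change 1.24, SE 0.39, edgeR adjusted p = 0.373). Ccl12 stood at 8.25 and 6.93 CPM against 5.06 and 2.08 CPM. Ccl7 stood at 14.9 and 15.7 CPM against 12.8 and 5.86 CPM, and Ccl2, the classic ligand of monocyte recruitment, at 10.4 and 11.7 CPM against 8.23 and 7.23 CPM. ZsGreen+ 2 was lowest for Ccl2, Ccl7 and Ccl12, and ZsGreen+ 1 for Ccl8. The eosinophil attractants Ccl11 and Ccl24 were too low to test, with 6 and 33 Ccl11 reads against 2 and 3. Fibroblast markers also lay higher in tdTomato+ libraries. Of 8 such markers, 5 had both tdTomato+ libraries above both ZsGreen+ libraries, against 19.9% of all genes. In 0 of the 8 both lay below, and none was called. Their summed level was 236 and 438 CPM against 97.7 and 122 CPM. The part of fibroblast RNA in these ligands was not tested.

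Ligands of the Ccl3 to Ccl9 group had their lowest value in ZsGreen+ 2 in 5 of 5 genes. So did 26 of all 39 members tested, 27.8% of all genes tested and 7 of 7 pan-leukocyte markers. Ccl6 stood at 376 and 219 CPM in tdTomato+ cells, 205 CPM in ZsGreen+ 1 and 49.5 CPM in ZsGreen+ 2. That gives a log2 fold change of 1.23 (SE 0.60, edgeR adjusted p = 0.663), and it moved from 0.53 without ZsGreen+ 2 to 2.59 without ZsGreen+ 1. Lysozyme, Lyz2, the most abundant macrophage marker, stood at 3953 and 1969 CPM against 2269 and 469 CPM. All 10 macrophage markers had a log2 fold change above 0, against 49.3% of all genes. In 2 of the 10, both tdTomato+ libraries lay above both ZsGreen+ libraries, against 19.9% of all genes. None of the 10 markers was called or at 0, and they summed to 5535 and 2593 CPM against 3089 and 644 CPM. Their part in the Ccl6 values was not tested. Ccl4 stood at 15.1 and 11.9 CPM against 11.8 and 3.12 CPM, and Ccl3, a related inflammatory ligand, at 4.35 and 3.78 CPM against 2.66 and 0.767 CPM. Ccl9 was at 19.5 and 9.40 CPM against 14.5 and 3.83 CPM. Ccl5 (RANTES), known from T and NK cells as well as platelets, overlapped at 18.1 and 17.5 CPM against 24.6 and 12.9 CPM.

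Homing ligands for lymphocytes and dendritic cells were sparse. Ccl17, made by dendritic cells, stood at 4.68 CPM in tdTomato+ 1 and 5.88 CPM in ZsGreen+ 1, and at 0.0525 and 0.11 CPM in the second library of each group. Ccl22, which binds the same receptor, was at 2.15 and 0.367 CPM against 1.65 and 0.767 CPM. Ccl27a was at 2.81 and 6.35 CPM against 4.37 and 3.18 CPM. Its near copy Ccl27b was at 3.30 and 3.41 CPM against 1.46 and 0.329 CPM, and both have fractional counts, so the split of reads between these copies is uncertain. Counts were also fractional for Ccl9, Ccl19, Cxcl2, Cxcl3, Cxcl16 and Cxcr2. Ccl25 was at 0.88 and 0.945 CPM against 2.09 and 0.876 CPM. Ccl19 had at most 14 reads in a library, Ccl1 and Ccl20 at most 2, and Ccl28 none.

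Signalling receptors were low, with a mean of at most 4.58 TPM. Ccr1, a receptor of myeloid cells, stood at 15.0 and 7.67 CPM in tdTomato+ and 5.69 and 3.01 CPM in ZsGreen+ libraries (log2 fold change 1.38, SE 0.48, edgeR adjusted p = 0.444). That value was 0.82 without tdTomato+ 1 and 1.91 without ZsGreen+ 1. Ccr2, the receptor for Ccl2 on monocytes, was at 5.01 and 3.83 CPM against 2.34 and 0.438 CPM. Cx3cr1, the fractalkine receptor of monocytes and macrophages, was at 9.24 and 5.88 CPM against 5.69 and 2.14 CPM. These 3 receptors were lowest in ZsGreen+ 2, as were 26 of all 39 members tested and 27.8% of all genes tested. The leukocyte marker Ptprc (CD45) was lowest there too, at 20.7 and 13.8 CPM against 8.61 and 3.51 CPM. Cxcr2, the receptor for Cxcl1 and Cxcl2, overlapped at 8.53 and 5.20 CPM against 5.25 and 3.83 CPM. Its relative Cxcr1 had 49 reads in tdTomato+ cells and 3 in ZsGreen+ cells, a ratio of 14.9 with an exact 95% interval of 4.82 to 75.0 that covers counting error only (edgeR adjusted p = 0.228). The lymphocyte receptors Ccr6, Cxcr3, Cxcr5 and Cxcr6 lay at or under 2.40 CPM in each library. Ccr1l1 and Ccr3 had no read in any library, and Ccr4, Ccr8, Ccr9 and Ccr10 had at most 9 in any.

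Neighbouring members shared a locus but not a level. The chromosome 11 cluster from Ccl2 to Ccl4 (chr11:82035577-83664683) holds 11 members. A positive log2 fold change was found in 8 of 9 tested, against 29 of all 39 members tested and 49.3% of all genes. None of the 9 was called, against 0.304% of all genes. Mean levels in the cluster ran from 0.125 TPM for Ccl1 to 259 TPM for Ccl6. The 8 CXC ligands on chromosome 5 ran from 0.0425 TPM for Cxcl5 to 75.4 TPM for Cxcl1.

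Genes that act with chemokine receptors showed no call in any of the lists examined. Over all genes tested only 0.304% were called, so the lack of a call in lists this short says little about them. None passed among 16 G protein, arrestin and receptor kinase genes (median log2 fold change -0.04), 16 signalling genes below the receptors (0.22) and 13 NF-kappaB and interferon regulators (0.04). Gnai2, the inhibitory G protein subunit that most chemokine receptors use, stood at 1945 and 2172 CPM in tdTomato+ and 2550 and 2542 CPM in ZsGreen+ libraries. Pik3r5, a regulatory subunit of the PI3-kinase activated by G proteins, stood at 18.5 and 13.8 CPM against 5.88 and 0.712 CPM (a log2 difference of 2.31, SE 0.80, edgeR adjusted p = 0.444). Vav1, an exchange factor of leukocytes, was at 13.6 and 7.04 CPM against 5.82 and 2.96 CPM. Relb stood at 82.3 and 80.7 CPM against 71.1 and 57.4 CPM. Among 7 chemokine-cleaving proteases tested none was called. Dpp4, which trims the start of Cxcl12 and Cxcl10, stood at 10.1 and 10.3 CPM in tdTomato+ and 22.2 and 50.3 CPM in ZsGreen+ libraries (log2 fold change -1.83, SE 0.39, edgeR adjusted p = 0.172). Mmp2, a gelatinase that also cleaves chemokines, stood at 88.5 and 147 CPM against 28.3 and 31.5 CPM (edgeR adjusted p = 0.0525). Of family genes outside the symbol rule, Ackr1, the Duffy receptor of venules, stood at 108 and 50 CPM against 46.1 and 7.50 CPM (a log2 difference of 1.56, SE 0.75, edgeR adjusted p = 0.644), and the platelet chemokine Pf4 overlapped at 12.0 and 12.9 CPM against 19.8 and 9.70 CPM.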

How the data were processed

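The tdTomato+ and ZsGreen+ lung endothelial cells gave 2 libraries each by RNA-seq after whole-transcriptome amplification of small RNA amounts, per the labels' protocols, and no molecular identifiers are named. RSEM 1.3.1, DESeq2 1.4.5 and the builds mm10 and GRCm38 are listed, without a role, per the submitters' processing notes. The authors deposited estimated counts per gene, 16.2% to 17.9% of them not whole, and TPM values scaled for transcript length, per the file headers. No source used here states the strandedness. A further 8 columns of per-sample values were not used.

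Counts were rounded and tested with edgeR 4.0.16 in R 4.3.3 (quasi-likelihood F-test, TMM, filterByExpr with a minimum count of 10), over all 13177 genes kept, with Benjamini-Hochberg adjustment. Each SE was taken as the size of the log2 fold change divided by the root of its F value. With 2 against 2 libraries an exact two-sided permutation p cannot go below 0.333, so none is given. Simulated counts with known fold changes, drawn with the means and dispersions of the real fit, were tested after it. Their results are not given here. Named are called members and the 30 members with the highest mean at 1 CPM or more, 1 of which is not reported here, and up to 4 genes per pathway list by p; other genes and markers were named after their values were seen. Members and lists were chosen with earlier results of these data known. Alternatives were DESeq2 1.42.0, limma 3.58.1 (voom, and a fit on log2 of TPM plus 1 or 0.1), other scalings and filters, each library left out and a replicate block. Motif windows came from RefSeq, matched by gene ID for 42 of 54 members.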

Additional observations from a re-analysis of the deposited data

How the results depend on the processing

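The count of called members was 0 in edgeR's fit and stayed 0 with RLE or upper quartile factors, a minimum count of 30, limma-voom and limma on TPM. It was 3 with DESeq2, 1 (Ackr2) with no filter on low counts and 0 to 5 with 1 library left out. The median log2 fold change of the members was 0.43 to 1.67 with 1 library left out, and 0.65 to 0.88 under the other alternatives. With the replicate number as a block, edgeR called 15 members, against 7.09% of all genes, with a median of 0.78. These were Ackr2, Cxcl1, Cxcl2, Cxcl10, Cxcl15, Cxcl16, Cx3cl1, Ccl4, Ccl6, Ccl8, Ccl12, Ccl27b, Ccr1, Ccr2 and Cxcr1, none of them called by the same filtered edgeR fit without the block. The titles do not say that a number marks shared mice. Deviations of same-numbered libraries from their group means correlated at 0.455 over all genes tested and 0.745 over the 39 members, a description with no test. The direction turned on the TPM scale for Cxcl12 (0.10), Ackr3 (0.01) and Ccl5 (0.17), and for Ccl5 with limma-voom (0.02). With 1 library left out it also turned, within the ranges -0.11 to 0.68 for Ccrl2, -0.47 to 0.47 for Ccl5, -0.01 to 1.91 for Ccl9, -1.04 to 0.25 for Ackr4, -0.42 to 1.62 for Cxcl14, -0.40 to 0.75 for Ccl27a and -5.65 to 4.35 for Ccl17. The cause was not tested. A group left with 1 library was assumed to vary like the other. Counts under about 0.2 CPM, 3 reads in a library, limit what can be said of the 15 untested members.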
